A study of Homo sapiens with 20 samples.

Results

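A set of 10 genes of the NF-kB system was followed in MDA-MB-468 cells under epidermal growth factor (EGF). The genes were 4 of the subunits (NFKB1, NFKB2, REL and RELB), 3 members of the IkB family (NFKBIA, NFKBIE and NFKBIZ) and 3 targets with a feedback or effector role (TNFAIP3, TNFAIP2 and BIRC3). They were taken by gene symbol from the table of 60271 genes, as a set drawn up with earlier results of these data known, and all 10 passed the filter on low counts that left 16522 genes for testing. MDA-MB-468 is an established line of triple negative breast cancer cells with high levels of the EGF receptor. Cells were serum-starved and then left untreated (control) or exposed to EGF at 50 ng/mL, and the exposure lasted 12, 24, 48 or 72 h. Each of the 5 groups had 4 biological replicates, which gives 20 libraries in all. Serum starvation was shared by the control and every EGF group, and all groups were harvested together, so that the groups differed in when EGF was added. These libraries come from 1 cell line with no NF-kB inhibitor, and RNA alone is described here.

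NF-kB is a family of dimeric transcription factors. In resting cells, IkB proteins hold the dimers in the cytoplasm. The IKK kinase complex marks IkB for destruction, after which the dimers enter the nucleus and activate genes for cytokines, adhesion molecules and survival proteins. In the canonical branch the dimers hold p50, the product of NFKB1, with RELA or REL, whereas in the non-canonical branch they hold p52, the product of NFKB2, with RELB. Several inhibitors and NF-kB subunits are themselves NF-kB targets, which makes feedback loops, and in breast cancer the family is known mainly from basal and inflammatory tumors.

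Levels are given as CPM, counts per 1000000 counts of the library, after TMM scaling, which corrects library sizes for differences in composition. A difference is given as a log2 fold change with its standard error (SE) from a model of all 20 libraries. Every adjusted p comes from the quasi-likelihood test of edgeR, with adjustment by Benjamini and Hochberg over the genes tested (16522, or the number left under a named alternative), and a gene was called higher or lower where it was under 0.05. Total counts per library ran from 15611961 to 25856953 with a median of 20398047. Each library correlated with the mean of the others of its group at 0.982 to 0.997, and the variance between replicates was 3.78 to 65.4 times counting noise over 30 pairs of libraries. The epithelial label fitted its markers, with EPCAM between 138 and 226 CPM in all libraries, but these markers were not steady. Against the control at 12 h, EPCAM and CDH1 were higher (log2 fold change 0.24 and 0.51), and KRT8 and KRT18 were 4.99- and 6.52-fold higher. At 72 h EPCAM and CDH1 were lower (-0.33 and -0.49) and KRT18 was higher (0.87). PGR had no counts in any library, while ESR1 (1.91 to 6.53 CPM) and ERBB2 (7.79 to 24.6 CPM) were low. Leukocyte markers, which matter here because leukocytes express many NF-kB targets, summed to 4.44 to 5.38 CPM in the controls and 30.0 to 35.2 CPM at 72 h over 7 genes. Most of the sum at 72 h was CD68 (0.804 to 1.58 CPM in the controls and 23.5 to 28.0 CPM at 72 h), and all 4 leukocyte markers tested were higher than the control at 48 and at 72 h. The ranges in the controls and at 72 h were 2.48 to 3.41 and 4.10 to 4.73 CPM for CD14, which was lower at 12 h, 0.128 to 0.841 and 0.964 to 1.59 CPM for LYZ, and 0.0854 to 0.301 and 0.626 to 1.06 CPM for ITGAM. PTPRC was at most 0.304 CPM and CD3E had at most 2 counts in any library. Fibroblast and endothelial markers summed to at least 7.21 CPM in the controls and at most 18.1 CPM at 72 h over 8 genes, mostly from COL1A1, while LUM and COL1A2 had at most 1 count in any library. The mitochondrial share of counts was 9.03 to 12.6% in the controls, 7.69 to 11.3% at 12 h, 11.1 to 13.8% at 24 h, 9.83 to 16.9% at 48 h and 12.3 to 16.4% at 72 h. What part these moves have in the results was not tested.

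The promoters of the members were searched for NF-kB sites to describe their letters. RefSeq windows of GRCh38.p14, from 250 bases before to 50 bases after each start, were held for 8 of the 10 members. Read on both strands, a core form of the NF-kB site, chosen after these windows had been seen and made of GGG, any 2 bases and TTTCC, was found for 7 of those 8 members and for 635 of 27305 genes in the table (2.33%), or 1.91% of its windows. The named NF-kB consensus, which is looser and overlaps this form, was also found for 7 of 8 members and for 7.09% of all genes, or 5.91% of windows. TNFAIP2 was the member without either. The 30 bases around each match to the core form follow, 5′ to 3′ on the strand of the gene, with the match in capitals, since these are the letters that the windows share.

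NFKB1, chr4:102501310-102501319: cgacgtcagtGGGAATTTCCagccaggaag
NFKB2 (first start with a match), chr10:102394500-102394509: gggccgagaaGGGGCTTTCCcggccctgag
NFKB2 (second start with a match), chr10:102395684-102395693: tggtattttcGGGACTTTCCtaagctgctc
REL, chr2:60881528-60881537: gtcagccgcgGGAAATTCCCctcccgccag
NFKBIA, chr14:35404821-35404830: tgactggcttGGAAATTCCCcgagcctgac
NFKBIZ, chr3:101827767-101827776: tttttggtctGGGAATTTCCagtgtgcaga
TNFAIP3 (farther site), chr6:137867192-137867201: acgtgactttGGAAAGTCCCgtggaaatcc
TNFAIP3 (nearer site), chr6:137867204-137867213: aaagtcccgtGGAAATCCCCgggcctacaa
BIRC3, chr11:102317285-102317294: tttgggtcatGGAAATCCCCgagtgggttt

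The matches in REL, NFKBIA, TNFAIP3 and BIRC3 read on the opposite strand, so their capitals are the reverse complement of the letters searched. NFKB1, REL, NFKBIA and NFKBIZ held the same 10 letters, GGGAATTTCC on one strand or the other. The first base of the match lay between 21 and 81 bases before the RefSeq start, except in NFKBIZ (223 bases) and BIRC3 (199 bases), and TNFAIP3 held a pair of matches 67 and 55 bases before its RefSeq start. The gene positions given below are those of GENCODE 29, and the matches of NFKB2, REL and TNFAIP3 lie within them. NFKBIA, whose EGF libraries overlapped the controls at every time, and BIRC3, which rose 3.10- to 4.98-fold, are shown with longer upstream stretches because both hold a match. TNFAIP2, which rose late, is shown as the member that holds none. The stretches are clear of exons of GENCODE 29. A match describes the letters of a window and was not tested as a site.

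NFKBIA, chr14:35404750-35404999, minus strand: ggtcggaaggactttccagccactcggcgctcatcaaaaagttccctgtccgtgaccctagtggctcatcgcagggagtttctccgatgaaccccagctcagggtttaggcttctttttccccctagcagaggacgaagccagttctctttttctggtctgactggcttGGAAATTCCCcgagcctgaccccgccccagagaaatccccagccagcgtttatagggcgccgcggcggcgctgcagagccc
BIRC3, chr11:102317234-102317449, plus strand: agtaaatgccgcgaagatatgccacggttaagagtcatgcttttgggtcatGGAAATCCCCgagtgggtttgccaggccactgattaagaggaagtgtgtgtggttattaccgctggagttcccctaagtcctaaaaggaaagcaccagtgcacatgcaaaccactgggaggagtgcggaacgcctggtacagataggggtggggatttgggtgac
TNFAIP2, chr14:103123211-103123441, plus strand: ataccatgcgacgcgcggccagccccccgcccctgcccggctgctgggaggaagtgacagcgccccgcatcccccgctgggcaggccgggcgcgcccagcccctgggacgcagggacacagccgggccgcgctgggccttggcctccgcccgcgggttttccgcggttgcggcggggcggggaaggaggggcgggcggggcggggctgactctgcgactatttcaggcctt

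Against the control, 7 members were higher and 0 lower at 12 h, 7 higher and 1 lower at 24 h, 5 higher and 0 lower at 48 h, and 6 higher and 1 lower at 72 h. EGF moved a large part of the transcriptome, so these counts are to be read against the share of all 16522 genes that was called, which was 69.4%, 58.8%, 45.8% and 61.6% at the 4 times in turn. The number of members called was near that share at 12, 48 and 72 h and above it at 24 h. The direction was less even than over all genes: over all genes 32.9% were higher and 36.5% lower at 12 h, 29.2% and 29.6% at 24 h, 24% and 21.8% at 48 h, and 30.6% and 31% at 72 h. The median log2 fold change of the members was 0.55, 0.37, 0.34 and 0.50 at the successive times, whereas the median of all genes tested lay between -0.054 and 0.0099. NFKB2, RELB, TNFAIP3 and BIRC3 were higher at all 4 times, and each of the 10 members was called at 1 time or more. All 4 times were compared with the same 4 control libraries. In a bulk sample, fewer cells that express a gene and less RNA of it per cell cannot be told apart. The replicates are biological replicates by their labels, grown in multi-well plates, and which wells made up a replicate is not given in the sources used here, so that p-values measure the spread between these samples. The scaling sets part of this split. Without TMM, by library size alone, 5 members were higher and 2 lower at 12 h, with 71.8% of all genes called. At 24 h 4 were higher and 3 lower, with 61.1% of all genes called. Without TMM, the median of all genes fell by 0.28 at 12 h and by 0.14 at 24 h on the log2 scale. Relative to that median, 9 members lay above it and 1 below at 12 h, and 7 above and 3 below at 24 h, under either scaling. A change of scaling shifts all genes nearly alike, so these counts were bound to stay the same and are no check on the split.

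**Figure D1:**
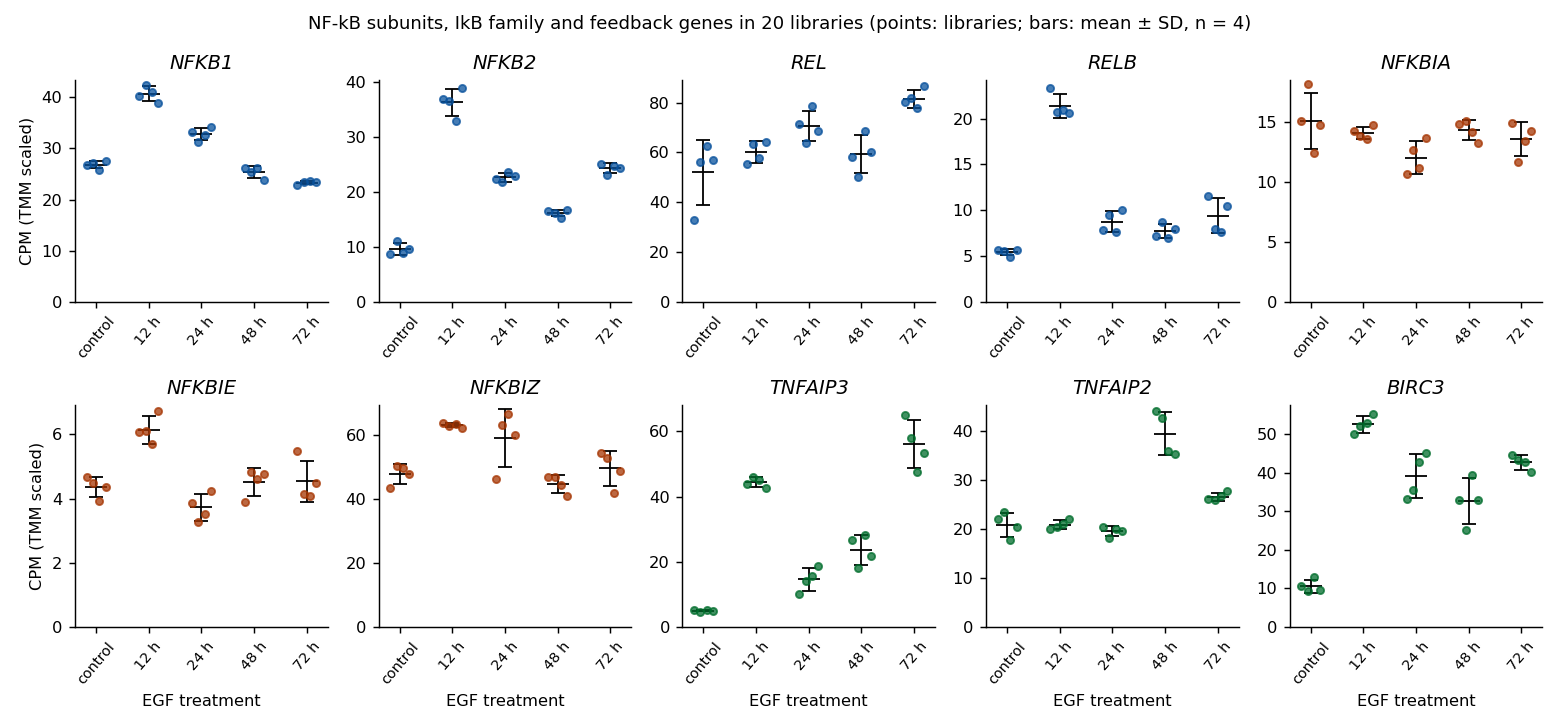
Level of each member (y axis, CPM after TMM scaling, from 0) in the control and at the 4 lengths of EGF treatment (x axis), with a point for each of the 20 libraries and bars for the mean ± SD of 4 libraries. Blue marks subunits, orange the IkB family and green the feedback and effector genes. TNFAIP3 peaked early and late, with 44.4 CPM at 12 h and 56.0 CPM at 72 h, TNFAIP2 was highest at 48 h with 39.5 CPM, and NFKBIA stayed between 12.0 and 15.1 CPM in all group means.

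Among the subunits, the genes of the non-canonical dimer rose most. NFKB2 (ENSG00000077150, chr10:102394110-102402529, plus strand) encodes p100, which is processed to p52. Its level in the 4 control libraries was 8.74, 11.1, 8.84 and 9.61 CPM, and at 12 h it was 36.9, 36.5, 33.0 and 38.9 CPM. It was 22.3, 21.8, 23.7 and 22.8 CPM at 24 h, and 16.5, 16.2, 15.3 and 16.7 CPM at 48 h. The 4 groups were fully separated, with the highest control under the lowest 48 h library and a step down from 12 to 24 to 48 h. At 72 h the libraries were back at 25.1, 23.0, 24.8 and 24.3 CPM, and 3 of these 4 lay above all 24 h libraries, although the 24 h and 72 h means did not pass the test against each other (log2 fold change 0.10 ± 0.08, adjusted p = 0.303, with 40.2% of all genes called). Against the control the log2 fold change was 1.92 ± 0.08 at 12 h (adjusted p = 7.55e-16), 1.24 ± 0.08 at 24 h, 0.75 ± 0.08 at 48 h and 1.34 ± 0.08 at 72 h (adjusted p = 7.01e-13). NFKB2 thus rose again by 0.59 ± 0.08 from 48 to 72 h (adjusted p = 2.44e-06).

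RELB (ENSG00000104856, chr19:45001430-45038198, plus strand) encodes the partner of p52 and lacks a window for its promoter in the table used. Control libraries held 5.63, 5.51, 4.91 and 5.67 CPM, and the 12 h libraries 23.3, 20.7, 20.9 and 20.7 CPM. At 24 h the values were 7.86, 9.49, 7.63 and 10.01 CPM, at 48 h 7.15, 8.66, 6.99 and 7.93 CPM, and at 72 h 11.5, 7.91, 7.65 and 10.4 CPM. The peak at 12 h stood apart from every other library, while the 3 later groups overlapped one another and lay above all controls. The log2 fold change against the control was 1.98 ± 0.12 at 12 h (adjusted p = 1.33e-12), 0.69 ± 0.13 at 24 h, 0.50 ± 0.13 at 48 h (adjusted p = 0.00273) and 0.80 ± 0.13 at 72 h. With factors per gene taken from the deposited normalized values the 48 h call was lost (0.42, adjusted p = 0.0724). RELB fell by 1.29 on the log2 scale from 12 to 24 h (SE 0.12, adjusted p = 7.75e-09), and the steps from 24 to 48 h and from 48 to 72 h did not pass the test (adjusted p = 0.216 and 0.0694).

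NFKB1 (ENSG00000109320, chr4:102501329-102617302, plus strand), the gene of p105 and p50, crossed its control level during the series. Its 4 control libraries held 26.8, 27.2, 25.8 and 27.5 CPM. At 12 h they held 40.3, 42.5, 41.1 and 39.0 CPM, and at 24 h 33.2, 31.2, 32.6 and 34.1 CPM. These groups did not overlap, with both EGF groups above the control. At 48 h the values were 26.2, 25.5, 26.2 and 23.8 CPM, 2 within and 2 under the control range, and at 72 h they were 22.8, 23.4, 23.6 and 23.4 CPM, all under every control. The log2 fold change was 0.60 ± 0.06 at 12 h (adjusted p = 4.01e-09) and 0.29 ± 0.06 at 24 h (adjusted p = 0.000239). It was -0.08 ± 0.06 at 48 h (adjusted p = 0.306) and -0.20 ± 0.06 at 72 h (adjusted p = 0.00575). The fall at 72 h was small, and it missed the threshold with no filter on low counts (adjusted p = 0.0591) and with factors per gene taken from the deposited normalized values (adjusted p = 0.0775). By library size alone the 24 h rise missed the threshold (0.15).

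REL (ENSG00000162924, chr2:60881521-60931610, plus strand), the gene of c-Rel, differed from the other subunits in that its highest level came at 72 h. The control libraries held 32.7, 55.9, 62.4 and 56.8 CPM, the first being well under the others. The levels were 55.3, 63.2, 57.7 and 64.2 CPM at 12 h, and 71.3, 63.7, 78.4 and 68.7 CPM at 24 h. They were 58.0, 49.9, 68.7 and 60.3 CPM at 48 h, and 80.0, 81.8, 77.6 and 86.5 CPM at 72 h. The 24 and 72 h libraries lay above all controls, whereas those of 12 and 48 h overlapped them. REL was higher by 0.44 ± 0.13 at 24 h (adjusted p = 0.00669) and by 0.65 ± 0.13 at 72 h (adjusted p = 0.000196). Without control replicate 1 these log2 fold changes were 0.27 (adjusted p = 0.0146) and 0.48 (adjusted p = 0.000117). By library size alone the 24 h value missed the threshold (0.30). The 72 h level did not pass the test against 24 h (adjusted p = 0.219). At 12 and 48 h the values were 0.21 ± 0.13 (adjusted p = 0.167) and 0.19 ± 0.13 (adjusted p = 0.255). REL is uncertain in one respect, as 43.3% of its exon bases in GENCODE 29 also lie in exons of AC010733.2 on the same strand, and how reads were divided between them is not given in the sources used here.

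**Figure D2:**
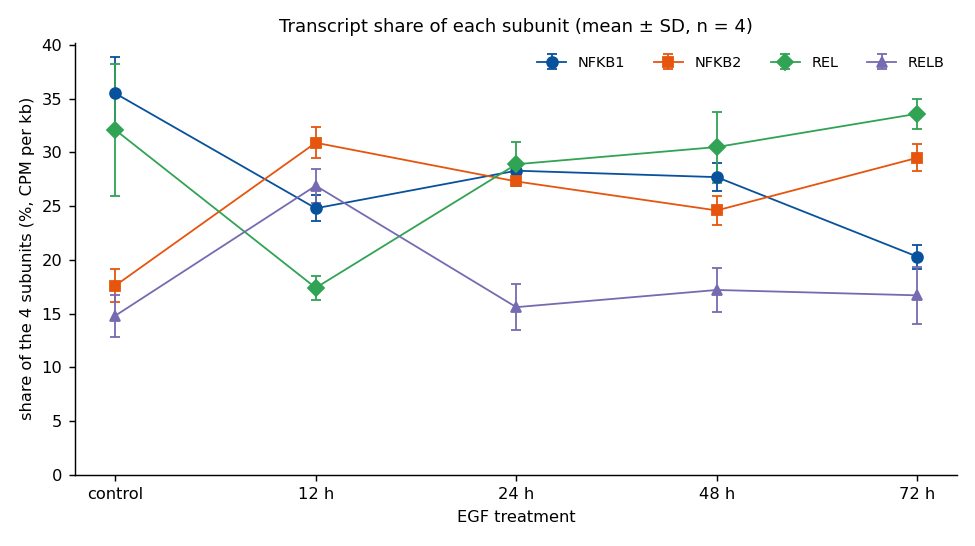
Share of each of the 4 subunit genes in their summed CPM per kb of exon (y axis, percent) in the control and at each EGF time (x axis), as mean ± SD of 4 libraries. The mean share of NFKB2 was 17.6% in the control and 30.9% at 12 h, and that of NFKB1 was 35.5% in the control and 20.3% at 72 h. All shares depend on the exon length of REL, part of which also lies in exons of AC010733.2.

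The makeup of the 4 subunits was compared per length, as CPM per kb of merged exons. All shares depend on the counts and exon length of REL, of which 43.3% also lies in exons of AC010733.2. How the shares and their order would change without that stretch was not tested. In the control NFKB1 held 35.5% ± 3.41 (SD, n = 4) of their sum, REL 32.1% ± 6.16, NFKB2 17.6% ± 1.52 and RELB 14.8% ± 1.94. At 12 h the shares were 24.8% for NFKB1, 17.4% for REL, 30.9% for NFKB2 and 26.9% for RELB. RELB was back at 15.6% ± 2.17 at 24 h, within the control range of 13.0 to 17.5%, while NFKB2 remained between 24.6% and 29.5% at the 3 later times. REL held the largest share at 72 h, with 33.6% ± 1.41, and NFKB1 had come down to 20.3% ± 1.12. The CPM ratio of NFKB2 to NFKB1 was 0.326 to 0.407 in the control libraries, 0.802 to 0.999 at 12 h, 0.583 to 0.726 over the 24 and 48 h libraries and 0.983 to 1.10 at 72 h. All EGF libraries therefore had a higher ratio than every control. RELA, the remaining subunit gene, was 111 ± 23.4 CPM in the control, compared with 187 ± 4.93 CPM at 12 h (log2 fold change 0.76 ± 0.10, adjusted p = 3.60e-07), and then 131, 120 and 138 CPM at 24, 48 and 72 h.

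The IkB family had no change as wide as those of NFKB2 and RELB, and its members did not move together. Their highest group mean was 1.26 to 1.65 times the lowest, beside 1.57 to 3.94 times for the 4 subunits. NFKBIA (ENSG00000100906, chr14:35401511-35404749, minus strand) encodes IkBa, the inhibitor that binds canonical dimers and the textbook case of NF-kB feedback. The libraries held 15.1, 18.1, 12.4 and 14.7 CPM in the control, compared with 14.2, 13.8, 13.5 and 14.7 CPM at 12 h. They held 10.6, 12.6, 11.2 and 13.6 CPM at 24 h, 14.8, 15.1, 14.1 and 13.2 CPM at 48 h, and 14.9, 11.7, 13.3 and 14.2 CPM at 72 h. Every EGF group overlapped the control, and 2 of the 24 h libraries lay under all controls. The log2 fold change was -0.10 ± 0.11 at 12 h (adjusted p = 0.411), -0.33 ± 0.11 at 24 h (adjusted p = 0.0112), -0.08 ± 0.11 at 48 h (adjusted p = 0.582) and -0.15 ± 0.11 at 72 h (adjusted p = 0.221). At 12 h NFKBIA was called lower by library size alone (-0.38, adjusted p = 0.00238) and with upper quartile scaling (-0.27, adjusted p = 0.0380). The call at 24 h was lost without control replicate 2 (-0.22, adjusted p = 0.0692). NFKBIA had the smallest span of the 10 members, with a highest group mean 1.26 times the lowest.

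NFKBIE (ENSG00000146232, chr6:44258166-44265788, minus strand) encodes IkBe, an inhibitor known for delayed feedback, and was the member with the least transcript per length at every EGF time (1.44 to 2.38 CPM per kb). The control libraries held 4.67, 4.50, 3.93 and 4.37 CPM and the 12 h libraries 6.06, 6.10, 5.69 and 6.74 CPM. At 24 h the values were 3.86, 3.28, 3.53 and 4.25 CPM, so that the groups of 12 h and 24 h lay on either side of most controls. NFKBIE was higher at 12 h by 0.50 ± 0.12 (adjusted p = 0.000896) and then fell by 0.72 on the log2 scale (SE 0.12, adjusted p = 4.07e-05). The values at 48 h (3.88 to 4.84 CPM) and 72 h (4.08 to 5.47 CPM) overlapped the control, with log2 fold changes of 0.05 ± 0.12 and 0.07 ± 0.12. By library size alone the 12 h value missed the threshold (log2 fold change 0.21), as it did with factors per gene (0.09). At 24 h the log2 fold change against the control was -0.22 ± 0.13 (adjusted p = 0.134). There NFKBIE was called lower by library size alone (-0.37, adjusted p = 0.0170) and with factors per gene (-0.68, adjusted p = 0.00889).

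NFKBIZ (ENSG00000144802, chr3:101827991-101861022, plus strand) encodes IkBz, a nuclear member of the family that acts as a cofactor of p50 dimers. Its control libraries held 43.4, 50.3, 49.8 and 47.8 CPM. The 12 h libraries were close together at 63.8, 62.9, 63.6 and 62.4 CPM, and those of 24 h were spread at 46.2, 63.3, 66.7 and 60.2 CPM. The first 24 h library lay within the control range, and the other 3 lay above it. Later levels were 46.9, 47.0, 44.6 and 41.0 CPM at 48 h and 54.5, 53.0, 42.0 and 49.0 CPM at 72 h, both overlapping the control. NFKBIZ was higher by 0.40 ± 0.09 at 12 h (adjusted p = 0.000549) and by 0.30 ± 0.09 at 24 h (adjusted p = 0.00756), and it fell by 0.40 from 24 to 48 h (adjusted p = 0.00117). At 48 and 72 h the log2 fold changes against the control were -0.09 ± 0.09 and 0.05 ± 0.09. By library size alone both rises missed the threshold (0.12 at 12 h and 0.16 at 24 h).

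**Figure D3:**
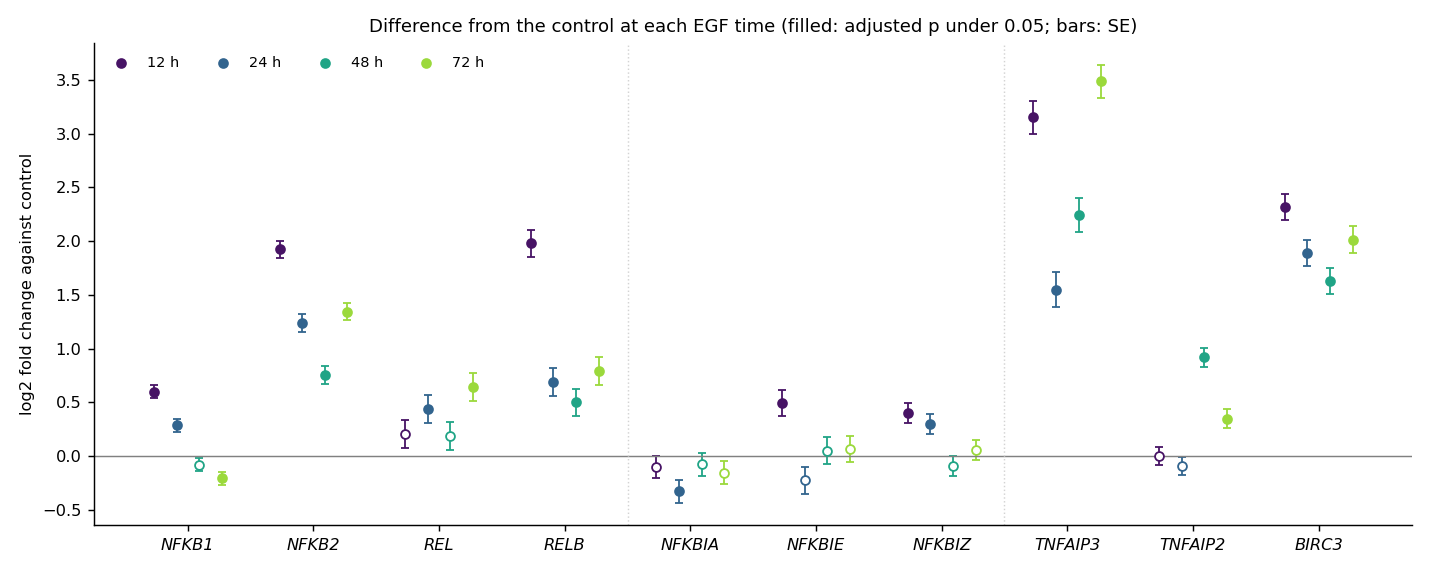
Log2 fold change against the control (y axis) for the 10 members (x axis) at 12, 24, 48 and 72 h, with SE bars and filled points where the adjusted p was under 0.05. The values for TNFAIP3 (1.55 to 3.49) and BIRC3 (1.63 to 2.32) stand above those of the other members at all 4 times, and those of NFKBIA lie under 0.

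TNFAIP3 (ENSG00000118503, chr6:137867188-137883312, plus strand) had the widest range of the members. It encodes A20, a ubiquitin-editing enzyme that shuts off signaling to IKK and is itself a classic NF-kB target. In the control libraries it was 5.22, 4.71, 5.17 and 4.90 CPM, and at 12 h it reached 44.0, 46.0, 45.1 and 42.6 CPM. The 24 h libraries held 10.2, 14.0, 15.6 and 18.6 CPM, the 48 h libraries 26.7, 18.1, 28.1 and 21.6 CPM, and the 72 h libraries 65.1, 58.1, 47.6 and 53.3 CPM. TNFAIP3 therefore had an early and a late maximum with a trough at 24 h, and every EGF library lay above all controls. The log2 fold change was 3.15 ± 0.16 at 12 h (8.88-fold, adjusted p = 2.41e-14), 1.55 ± 0.16 at 24 h (adjusted p = 1.81e-08), 2.24 ± 0.16 at 48 h (adjusted p = 3.97e-11) and 3.49 ± 0.15 at 72 h (11.2-fold, adjusted p = 4.24e-15). All 5 levels differed from their neighbors in the order of means, including 72 h against 12 h (0.34 ± 0.13, adjusted p = 0.0274, 4 of 4 libraries above, with 67.6% of all genes called). About 1.9% of its exon bases lie opposite AL357060.1. Whether counting used strand is not given in the sources used here, and without it reads of the pair cannot be told apart.

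BIRC3 (ENSG00000023445, chr11:102317450-102339403, plus strand) encodes cIAP2, a ubiquitin ligase that protects cells from death by TNF and helps to destroy the kinase NIK of the non-canonical branch. Its libraries held 10.6, 9.21, 12.9 and 9.52 CPM in the control, compared with 50.0, 52.0, 52.9 and 55.2 CPM at 12 h. The values were 33.1, 35.5, 42.6 and 45.0 CPM at 24 h, 32.9, 25.1, 39.5 and 33.0 CPM at 48 h, and 44.5, 43.2, 42.8 and 40.0 CPM at 72 h. BIRC3 stayed above all controls at each time. Its 24 h libraries overlapped those of 48 and 72 h, and the 4 libraries of 72 h lay above all 4 of 48 h. The log2 fold change was 2.32 ± 0.12 at 12 h (adjusted p = 5.70e-14), 1.89 ± 0.12 at 24 h, 1.63 ± 0.12 at 48 h (adjusted p = 1.15e-10) and 2.02 ± 0.12 at 72 h. It fell by 0.43 from 12 to 24 h on the log2 scale (adjusted p = 0.00277) and rose by 0.38 ± 0.11 from 48 to 72 h (adjusted p = 0.0108), and the step from 24 to 48 h did not pass the test (adjusted p = 0.0653), but did without EGF 24 h replicate 1 (-0.33, adjusted p = 0.0242) or EGF 48 h replicate 3 (-0.37, adjusted p = 0.0106). With factors per gene the calls from 12 to 24 h and from 48 to 72 h were lost (-0.20 and 0.42).

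TNFAIP2 (ENSG00000185215, chr14:103123442-103137439, plus strand), first found as a TNF-induced gene and known for a role in tunneling nanotubes, was late. The control libraries held 22.0, 23.4, 17.8 and 20.3 CPM, and those of 12 h held 20.1, 20.4, 21.1 and 22.0 CPM and those of 24 h 20.4, 18.2, 20 and 19.7 CPM, all within the control range. At 48 h the levels were 44.0, 42.6, 36.0 and 35.3 CPM, and at 72 h 26.2, 25.8, 26.7 and 27.7 CPM, both groups above all controls and apart from each other. The log2 fold change was 0.00 ± 0.09 at 12 h (adjusted p = 0.982), -0.09 ± 0.09 at 24 h (adjusted p = 0.386), 0.92 ± 0.08 at 48 h (adjusted p = 4.52e-09) and 0.35 ± 0.09 at 72 h (adjusted p = 0.00118). Its direction at 12 h depended on the scaling, as it was -0.28 by library size alone (adjusted p = 0.00800).

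The balance between inhibitors moved with TNFAIP3. The CPM ratio of TNFAIP3 to NFKBIA was 0.260 to 0.417 in the control libraries and 2.90 to 3.33 at 12 h. It was 0.962 to 1.40 at 24 h, 1.20 to 1.99 at 48 h and 3.57 to 4.98 at 72 h. Every EGF library had a higher ratio than every control. Per kb of exon, TNFAIP3 was the lowest of the 10 members in the control (0.990 ± 0.0474 CPM per kb) and the highest at 72 h (11.1 ± 1.46 CPM per kb). NFKBIZ led in the control (8.10 ± 0.530 CPM per kb), at 12 h (10.7 ± 0.106) and at 24 h, and TNFAIP2 at 48 h (7.85 ± 0.886). Over the 10 members together the sum was 197 ± 15.5 CPM in the control, 360 ± 6.47 at 12 h, 283 ± 20.2 at 24 h, 268 ± 15.0 at 48 h and 331 ± 16.3 CPM at 72 h.

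**Figure D4:**
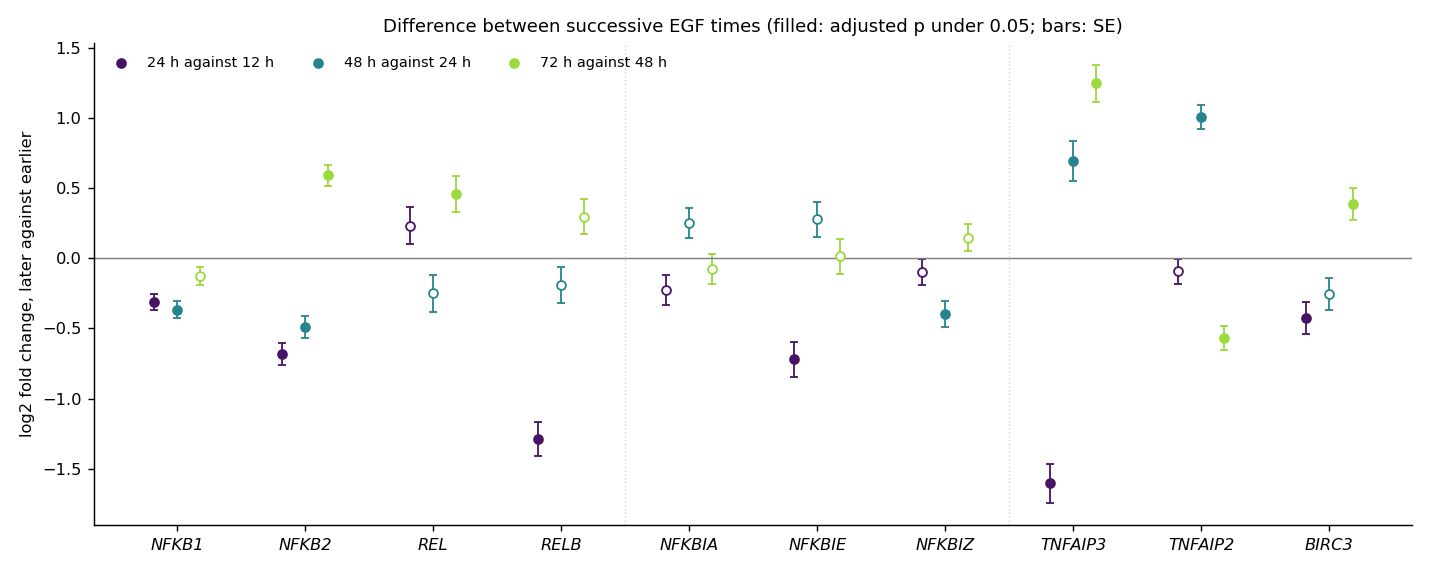
Log2 fold change of each member between successive EGF times (y axis, later against earlier), with SE bars and filled points where the adjusted p was under 0.05. From 12 to 24 h 6 members were lower and none higher, and from 48 to 72 h 4 were higher and 1 lower.

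Between successive times the members did not all move one way. From 12 to 24 h 0 members were higher and 6 lower (NFKB1, NFKB2, RELB, NFKBIE, TNFAIP3 and BIRC3), with 53.7% of all genes called in that step (27.9% higher and 25.9% lower). The largest falls were those of TNFAIP3 (-1.60 ± 0.14) and RELB (-1.29 ± 0.12). With factors per gene from the deposited normalized values, the falls of NFKB1 (-0.053) and BIRC3 (-0.20) were no longer called. REL was called higher under that setting (0.36). From 24 to 48 h 2 were higher (TNFAIP3 by 0.70 ± 0.14 and TNFAIP2 by 1.01 ± 0.09) and 3 lower (NFKB1, NFKB2 and NFKBIZ), against 50.2% of all genes (25.9% higher and 24.3% lower). From 48 to 72 h 4 were higher (NFKB2, REL, TNFAIP3 and BIRC3) and TNFAIP2 was lower by 0.57 on the log2 scale, against 35.7% of all genes (17.9% in each direction). The median log2 fold change of the members was -0.37, -0.22 and 0.22 over these steps, beside 0.040, 0.020 and -0.012 for all genes. By library size alone, and with upper quartile scaling, 1 member was higher and 6 lower from 12 to 24 h, 4 higher and 3 lower from 24 to 48 h, and 4 higher and 2 lower from 48 to 72 h. In these steps 53.9%, 50.1% and 38.2% of all genes were called by library size alone. With upper quartile scaling the shares were 54.2%, 49.5% and 37.1%. Successive steps share the libraries of the time between them.

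For the members whose group means spanned at least 1 on the log2 scale, the genes with the most similar course were sought among 13880 genes, by the root mean square (RMS) difference of the 5 centered group means of log2 CPM. NFKB2 was nearest to TMBIM1 (RMS 0.0741), ABL2 (0.0850) and STX1A (0.0862), and RELB to PFKFB3 (0.0650), IER2 (0.0763) and JUNB (0.0814), the last being an immediate early transcription factor. TNFAIP2 was nearest to SLC22A18 (0.0984), VARS2 (0.116) and ST6GALNAC4 (0.116), and BIRC3 to Z84488.1 (0.0833), SEC14L2 (0.0906) and RGS20 (0.0986). TNFAIP3 was nearest to LINC00862 (0.389), IL6R (0.394) and PEDS1-UBE2V1 (0.412). The RMS difference was not scaled by the span of a gene, which was 3.49 for TNFAIP3 and 1.01 to 2.32 for the others. Its size is therefore not comparable between members. BIRC3 ranked 452 among the genes nearest to NFKB2 (RMS 0.296) and RELB ranked 324 (RMS 0.267), whereas TNFAIP3 ranked 8626 (RMS 0.776). Among the genes nearest to TNFAIP3, BIRC3 ranked 65 (RMS 0.632), NFKB2 247, RELB 614 and TNFAIP2 4225. These likenesses rest on 5 group means of 4 libraries each.

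Around the members, 103 other genes of the pathway were listed by role, and 87 of them were tested. At 12 h 52 of these were higher and 15 lower (77.0% called, beside 69.4% of all genes). At 24 h there were 36 and 18 (62.1%, beside 58.8%), at 48 h 33 and 12 (51.7%, beside 45.8%), and at 72 h 45 and 13 (66.7%, beside 61.6%). The counts of the single lists below are to be read against the same shares of all genes. The IKK complex and the kinases above it had 9 higher and 3 lower of 14 at 12 h, 3 and 3 at 24 h, 4 and 2 at 48 h, and 5 and 3 at 72 h. TAB3, an adaptor of the kinase TAK1, rose from 103 ± 14.0 to 206 ± 7.90 CPM at 12 h, and IKBKB, the catalytic subunit of canonical IKK, rose from 11.8 ± 0.845 to 19.1 ± 1.73 CPM at 24 h. IRAK4, a kinase of Toll-like and IL-1 receptors, fell at 12 h to 10.1 ± 0.975 from 20.2 ± 2.73 CPM, and was higher at 48 h (0.32, adjusted p = 0.0155) and 72 h (0.26, adjusted p = 0.0349). IKBKE, a kinase related to IKK, was higher at 12 h (7.17 against 4.51 CPM, adjusted p = 0.000756) and lower at the 3 later times, with 2.70 CPM at 72 h (adjusted p = 0.000903). These 4 genes were named by a rule on the size of change in their list.

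Among adaptors and ubiquitin ligases, 8 of 16 were higher and 1 lower at 12 h, a smaller share called than the 69.4% of all genes. There were 8 higher and 2 lower at 24 h, 3 and 2 at 48 h, and 5 and 3 at 72 h. CARD10, a scaffold that links receptors to BCL10 and MALT1, rose by 2.04 ± 0.15 at 12 h (3.17 to 13.0 CPM, adjusted p = 2.88e-11). TRAF1, an NF-kB target of the TRAF family, rose late, from 0.589 to 2.94 CPM at 72 h (log2 fold change 2.30 ± 0.28, adjusted p = 1.01e-07). CARD14 was lower at 24 h (log2 fold change -1.57 ± 0.35) and TRAF5 at 48 h (-0.46 ± 0.10). Of 12 other negative regulators 7 were higher and 2 lower at 12 h, 3 and 2 at both 24 and 48 h, and 7 and 1 at 72 h. TNIP1, which works with A20, rose from 37.5 ± 3.36 to 79.7 ± 5.07 CPM at 12 h, and PDLIM2, a ubiquitin ligase for nuclear RELA, from 2.97 to 8.79 CPM. PDLIM2 was then lower at 48 h (-0.73, adjusted p = 0.00480). TRIM59 fell by 1.27 and USP18 by 0.69 on the log2 scale at 12 h, and USP18 was higher at 72 h (0.53, adjusted p = 5.59e-05). The list of the other subunit and IkB genes also held COMMD1, a regulator that is neither a subunit nor an IkB protein. Of its 6 genes 4 were higher and 1 lower at 12 h, 1 and 1 at 24 h, 1 and 2 at 48 h, and 2 and 2 at 72 h. The gene counted as lower at 12 h and at 24 h was COMMD1. All 6 were lower at 24 h than at 12 h, beside 25.9% of all genes. NFKBIB, the gene of IkBb, was 10.7 ± 1.58 CPM in the control, compared with 17.7 ± 1.65 CPM at 72 h (adjusted p = 1.33e-05), and COMMD1, which limits nuclear NF-kB, was lower at all 4 times and lowest at 24 h (7.09 against 17.6 CPM, adjusted p = 2.84e-10).

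Receptors were divided, with 5 of 11 higher and 5 lower at 12 h, 5 and 4 at 24 h, 4 and 1 at 48 h, and 5 and 3 at 72 h. TNFRSF12A, the receptor of TWEAK, rose from 23.2 ± 8.44 to 92.4 ± 5.57 CPM at 12 h (adjusted p = 4.19e-09). TLR1, a Toll-like receptor for bacterial lipopeptides, fell at 12 h by 1.27 on the log2 scale and then rose to 135 ± 5.57 CPM at 72 h from 12.8 ± 2.12 CPM in the control (log2 fold change 3.40 ± 0.13, adjusted p = 2.70e-16). TLR3 fell by 2.19 and TLR5 by 1.27 at 12 h. Of 9 ligand genes 4 passed the filter, and 1, 2, 3 and 3 of these were higher at the 4 times and 0 lower. All 4 were named after their values were seen. TNFSF12 was not called at any time. IL1A and IL1B had no counts in any control, so that they could only be called higher. The call at 12 h was that of IL1B at 0.0914 CPM. At 48 h IL1A and IL1B were called at 0.107 and 0.0991 CPM. These 12 and 48 h means lay under the floor of 3 counts per control library, which was 0.137 CPM. At 72 h IL1A and IL1B were 0.975 and 1.71 CPM, at least 7.11- and 12.5-fold higher than that floor. TNF was 0.259 CPM in the control, 0.239 at 12 h, 0.287 at 24 h, 0.824 at 48 h and 1.18 CPM at 72 h, and was called higher at 48 h (log2 fold change 1.63 ± 0.41) and at 72 h (2.15 ± 0.40).

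Of the other target genes of NF-kB, 24 of 30 passed the filter, and 18 were higher and 3 lower at 12 h, 14 and 6 at 24 h, 15 and 3 at 48 h, and 18 and 1 at 72 h. Their median log2 fold change was 1.32, 0.43, 0.78 and 1.17 at these times, which is also the value with CSF2 set to its bound. CXCL8, a chemokine for neutrophils, was 1.57 ± 0.461 CPM in untreated cells and reached 675 ± 24.5 CPM by 12 h (log2 fold change 8.74 ± 0.46, adjusted p = 1.63e-11) and was 100 ± 47.3, 40.6 ± 8.87 and 165 ± 36.8 CPM at 24, 48 and 72 h. CSF2, the gene of the cytokine GM-CSF, had no counts in any control, so that it could only be called higher. It had 5.19 to 7.39 CPM at 72 h, at least 46.5-fold higher than a floor of 3 counts per control library. CXCL10 was lower at 24 h (0.397 against 2.11 CPM, adjusted p = 3.09e-08), as was SAA1 (2.49 against 6.36 CPM, adjusted p = 9.18e-07). From 12 to 24 h 1 of these targets was higher and 18 lower, with 53.7% of all genes called in that step. Genes of early feedback on EGF signaling, kept as a reference, were all higher at 12 h (10 of 10) and at each later time 9 of 10 were higher and 1 lower. This list also held the transcription factors EGR1 and FOSL1. The gene that was lower was EGR1, with log2 fold changes of -1.25, -0.52 and -0.42 at 24, 48 and 72 h.

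**Figure D5:**
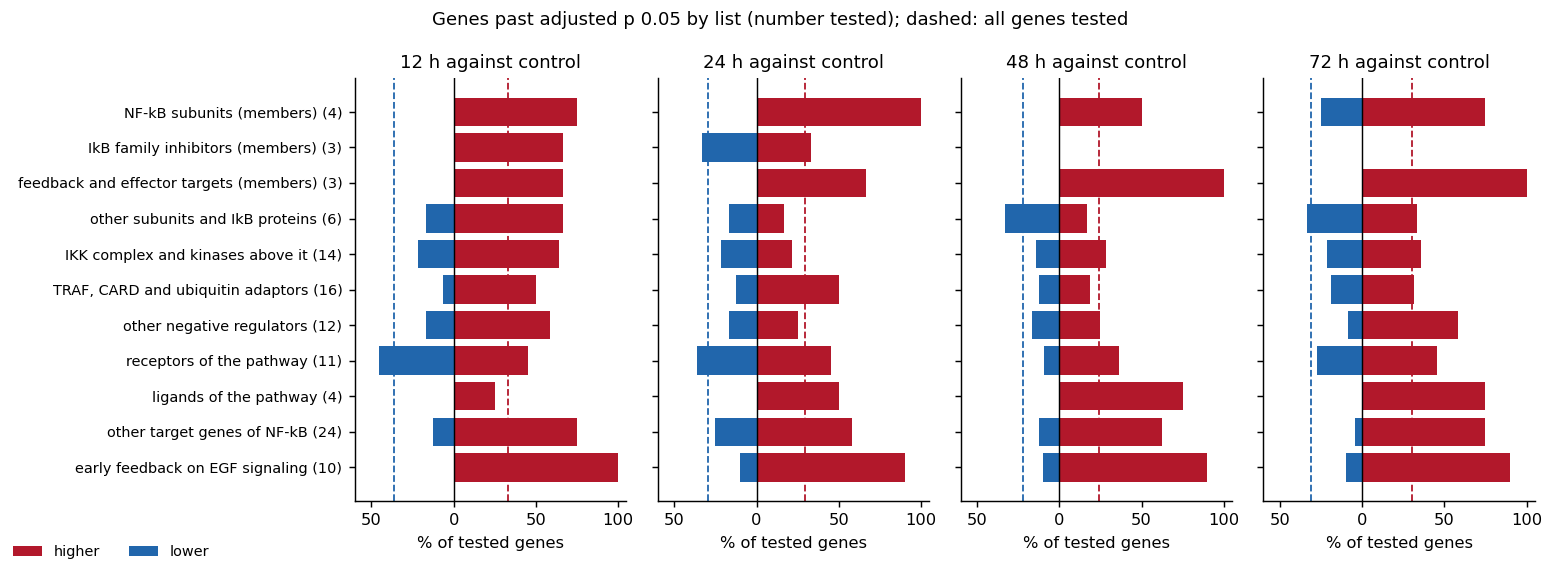
Share of tested genes of each list (x axis, percent) that was higher (red, to the right) or lower (blue, to the left) than the control at 12, 24, 48 and 72 h, with the number tested after the name of the list. The list of other subunits and IkB proteins also holds COMMD1, which is neither. The list of early feedback on EGF signaling also holds the transcription factors EGR1 and FOSL1. Dashed lines give the share over all 16522 genes, for example 32.9% higher and 36.5% lower at 12 h, and the 24 other target genes of NF-kB lie above it with 18 higher at 12 h and at 72 h.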

How the data were processed

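RNA of 20 libraries was sequenced from a Lexogen Corall mRNA preparation as single-end Illumina reads. The authors deposited a gene table with estimated counts per library, identical across the 10 tables of their comparisons, which were used here as whole numbers. Aligner, counting program, annotation and the use of molecular identifiers are not given in the sources used here. The authors' normalized values, deposited beside the counts, are a score without a fixed scale and served for 1 alternative. The authors' own fold changes and p-values from DESeq2 were in the same tables and were not used.

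Genes were filtered with filterByExpr, which left 16522 of 60271 genes, scaled by TMM (factors 0.862 to 1.09) and fitted as 5 group means over all 20 libraries with the robust quasi-likelihood test of edgeR 4.0.16 (limma 3.58.1, R 4.3.3). P-values were adjusted by the Benjamini-Hochberg method over all tested genes, and fold changes used a prior count of 0.125. The scripts were tested on simulated data. Positions and exon lengths are those of GENCODE 29 on GRCh38, in which 58036 of the gene identifiers were found. Promoter windows are those of RefSeq for GRCh38.p14. Intervals for single libraries were not computed, as 4 replicates stood behind each mean.

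The members, the pathway lists and the tests were chosen with earlier results of these data known. Genes of the pathway lists were named by a rule, as the 2 with the largest rise and the 2 with the largest fall in a list among called genes with a mean of at least 1 CPM and no overlap with the controls. The alternatives were library size scaling, upper quartile scaling, DESeq2 size factors and the DESeq2 1.42.0 Wald test, 2 other filters on counts, a fit of the 8 libraries compared, a replicate block, a test against a 1.5-fold limit, factors per gene from the deposited normalized values, and leaving out each library in turn.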

Additional observations from a re-analysis of the deposited data

Results flagged for a closer look

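In RELB at 12 h, replicate 1 (23.3 CPM) stood apart from the other 3 libraries, of which the next was 20.9 CPM. The gap was 0.899 of the range of the group, over the critical value of Dixon's test for 4 libraries. It was the 1 such library among 50 groups of 4 tested, where chance gives about 1 in 20. NFKB1 was higher than the control at 12 h (log2 fold change 0.60) and lower at 72 h (-0.20), and the direct comparison of 72 h with 12 h was -0.80 with an adjusted p of 5.89e-11 by edgeR. The same gene was higher at 24 h (0.29), and 72 h against 24 h was -0.49 with an adjusted p of 8.05e-07 by edgeR. In both comparisons all 4 libraries of 72 h lay under all 4 of the earlier time.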

How the results depend on the processing

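The counts of members called stayed within 1.5 times those reported under every alternative but the test against a 1.5-fold limit. That test left 4, 3, 3 and 3 members at 12, 24, 48 and 72 h, and 2, 1 and 1 in the steps from 12 to 24, 24 to 48 and 48 to 72 h. Of all genes it left 34.8%, 21%, 11.6% and 23.6% at these times, and 13.3%, 11% and 5.34% in these steps. Leaving out 1 library gave 7 to 7, 7 to 8, 5 to 5 and 7 to 8 members against the control, and 6 to 7, 5 to 7 and 5 to 6 in the steps. Of all genes, 65.7 to 68.4%, 54 to 57.9%, 41 to 48.2% and 56.6 to 61.1% were then called against the control. In the steps these shares were 48.4 to 50.4%, 44.2 to 49.2% and 29.3 to 34.6%. The DESeq2 Wald test kept the direction and the call of all 70 member results. With factors per gene, 6 members were higher and 0 lower at 12 h, 7 and 2 at 24 h, 4 and 0 at 48 h, 6 and 0 at 72 h, and 1 and 4 from 12 to 24 h. In these comparisons 65.3%, 53%, 36.2%, 54.9% and 48.8% of all genes tested under that setting were called. With at least 10 counts in every library 4 were higher and 3 lower from 24 to 48 h (52.7% of all genes called). With the 8 libraries compared 1 was higher and 7 lower from 12 to 24 h (64.1% of all genes called).

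Some values near 0 changed sign. By library size alone they were REL at 12 h (-0.073), TNFAIP2 at 12 h (-0.28), NFKBIE at 72 h (-0.011), NFKBIZ at 72 h (-0.023), NFKBIZ and TNFAIP2 from 12 to 24 h (0.043 and 0.048) and NFKBIE from 48 to 72 h (-0.075). Under upper quartile scaling they were TNFAIP2 at 12 h (-0.16), NFKBIZ and TNFAIP2 from 12 to 24 h (0.018 and 0.023) and NFKBIE from 48 to 72 h (-0.027). TNFAIP2 at 12 h was -0.035 with at least 10 counts in every library. With factors per gene NFKBIE was -0.26 at 48 h, -0.46 at 72 h and -0.20 from 48 to 72 h, and NFKBIZ was 0.10 from 12 to 24 h. Leaving out 1 library, NFKBIA ranged from -0.18 to 0.0061 at 12 h and from -0.16 to 0.026 at 48 h, TNFAIP2 from -0.066 to 0.066 at 12 h, NFKBIE from -0.034 to 0.12 at 72 h and from -0.088 to 0.065 from 48 to 72 h, and NFKBIZ from -0.16 to 0.0045 from 12 to 24 h. The cause was not tested.

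The replicate numbers showed no clear pairing of the libraries, which does not exclude one. Over 40 pairs of libraries of different groups with the same number the correlation of their deviations had a median of 0.025 and a maximum of 0.683. Over 120 pairs with different numbers these were -0.016 and 0.557. Of 20 libraries 7 correlated best with their own number. With the replicate block 7, 8, 5 and 7 members were called against the control and 6, 7 and 5 in the steps, and 68 of 70 member results kept their side of the threshold, the others being NFKBIA (0.26) and BIRC3 (-0.26) from 24 to 48 h, which were called under the block. Of all genes, 70.1%, 59.7%, 47.4% and 62.4% were called against the control under the block, and 55%, 51.8% and 37.4% in the steps. RNA levels of 1 cell line were measured, and depth limits mainly the low genes, such as TNF.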
